A study of Mus musculus with 20 samples.

Results

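The genes described here are 8 non-coding host genes of small nucleolar RNAs (snoRNAs): Gas5, Snhg1, Snhg3, Snhg5, Snhg6, Snhg8, Snhg12 and Snhg15. They were chosen by their symbols, which were matched to the identifiers of both count tables through GENCODE M21 (GRCm38), and all 8 were found among 54221 genes listed for heart or skeletal muscle. RNA sequencing covered 5 hearts of WT C57BL/6N mice and 5 hearts of Taz-KD mice. It also covered 5 femur muscles of WT mice and 5 femur muscles of Taz-KD mice. Each library has its own replicate label, and no label links a heart to a muscle. Taz-KD mice carry ROSA26H1/tetO-shRNA:TAZ, an inducible hairpin against Taz, the gene of the enzyme that remodels cardiolipin in mitochondria and that is lost in Barth syndrome. Mice of both genotypes ate chow with 625 mg/kg doxycycline, which switches the hairpin on in the transgenic animals, and all were 20 weeks old. The knockdown is systemic and not limited to muscle cells, and both groups share the exposure to doxycycline, so an effect of the drug alone cannot be seen.

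Host genes of this kind are transcribed and spliced like messenger RNAs, and the snoRNAs are trimmed out of their introns. Box C/D snoRNAs then guide ribose methylation and box H/ACA snoRNAs guide pseudouridylation of ribosomal RNA, so that a host gene feeds the assembly of ribosomes through its introns. The spliced exons encode no conserved protein. Many of these RNAs begin with the terminal oligopyrimidine (TOP) motif, a C followed by further pyrimidines that also opens the mRNAs of ribosomal proteins and elongation factors, and several are degraded by nonsense-mediated decay (NMD) once a ribosome reads them. For Gas5, named for its accumulation in growth-arrested cells, this turnover depends on ongoing translation, which is why the level of such RNAs is often read beside the state of translation.

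To show how alike the host genes begin, their starts are printed first, with 40 bases before and 30 bases from the annotated start, which is letter 41 of 70. The windows come from RefSeq (GRCm38.p6), which held 7 of the 8 genes and 2 starts of Gas5. For Snhg6 the first 30 bases of a GENCODE M21 transcript are given. Capitals mark a run of at least 5 pyrimidines that opens with C and begins between 5 bases before and 15 bases after the start, and windows without capitals hold no such run.
Gas5, downstream start (chr1:161035126-161035195, plus strand): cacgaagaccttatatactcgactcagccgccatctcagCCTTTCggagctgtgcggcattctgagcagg
Gas5, upstream start (chr1:161034561-161034630, plus strand): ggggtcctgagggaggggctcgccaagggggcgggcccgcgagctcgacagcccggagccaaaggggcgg
Snhg12 (chr4:132308638-132308707, plus strand): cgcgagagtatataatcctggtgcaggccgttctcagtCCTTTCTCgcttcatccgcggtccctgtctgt
Snhg8 (chr3:123508307-123508376, minus strand): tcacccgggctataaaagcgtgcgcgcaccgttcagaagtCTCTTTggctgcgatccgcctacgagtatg
Snhg6 (chr1:9944089-9944118, minus strand): CTTTCTCggcagcgccgtagagcgcgagca
Snhg5 (chr9:88522868-88522937, minus strand): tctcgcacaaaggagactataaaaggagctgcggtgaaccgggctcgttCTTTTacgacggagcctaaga
Snhg3 (chr4:132353657-132353726, minus strand): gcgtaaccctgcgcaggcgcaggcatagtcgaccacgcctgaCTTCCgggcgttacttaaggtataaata
Snhg1 (chr19:8723447-8723516, plus strand): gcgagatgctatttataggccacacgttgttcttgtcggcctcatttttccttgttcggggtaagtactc
Snhg15 (chr11:6528731-6528800, minus strand): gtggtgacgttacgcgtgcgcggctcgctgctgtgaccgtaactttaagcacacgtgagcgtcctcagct

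Such a run was present in 5 of the 8 RefSeq windows, that is 62.5%, beside 28.1% of 32851 promoter windows of all genes and 49.4% of 77 windows of ribosomal protein genes. Snhg12, Snhg8, Snhg6 and the downstream start of Gas5 carried runs of 6 to 8 pyrimidines at or within 2 bases of the start. Snhg3 and Snhg5 carried runs of 5 pyrimidines placed 2 and 9 bases into the transcript, and Snhg1, whose start holds pyrimidines broken by an A, had none by this definition. Over the whole 300 bases of a window (250 before and 50 from the start, both strands searched), the core of the amino acid response element to which ATF4 binds, TGATGNAA, was found in 0 of the 8 windows and in 3.97% of all windows. The E-box CACGTG stood in 1 window, that of Snhg15, against 7.15% of all windows. The TATA motif TATAAA stood in 4, those of Snhg1, Snhg3, Snhg5 and Snhg8, against 13.6%. These are matches of letters in these windows and say nothing about binding.

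The snoRNAs that the genes carry are shown by 4 examples from GENCODE M21, 1 for each host that the later results turn on. Capitals mark the letters TGATGA of the C box and CTGA of the D box in Snord47 and Snord87, and the ACA box near the end of Snora9 and Snora73b.
Snord47 in Gas5 (chr1:161038082-161038158, plus strand): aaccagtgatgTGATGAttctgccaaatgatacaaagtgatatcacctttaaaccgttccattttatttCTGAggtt
Snord87 in Snhg6 (chr1:9942463-9942549, minus strand): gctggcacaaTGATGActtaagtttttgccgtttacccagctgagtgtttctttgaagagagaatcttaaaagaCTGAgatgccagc
Snora9 in Snhg15 (chr11:6528033-6528165, minus strand): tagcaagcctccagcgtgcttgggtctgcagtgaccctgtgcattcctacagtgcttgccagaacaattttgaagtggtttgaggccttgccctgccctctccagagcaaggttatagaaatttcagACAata
Snora73b in Snhg3 (chr4:132352322-132352526, minus strand): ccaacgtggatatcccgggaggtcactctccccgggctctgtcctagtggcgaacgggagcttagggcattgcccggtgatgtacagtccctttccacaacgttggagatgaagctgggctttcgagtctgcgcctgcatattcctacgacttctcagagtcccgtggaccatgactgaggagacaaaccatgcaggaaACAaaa

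The 8 host genes lie on 6 chromosomes (1, 3, 4, 9, 11 and 19) and contain 30 annotated snoRNA genes on their own strand. Gas5 (ENSMUSG00000053332, chromosome 1 from 161034422 to 161038539, plus strand) holds 10 and Snhg1 (ENSMUSG00000108414, chromosome 19 from 8723475 to 8726443, plus strand) holds 8. Snhg12 (ENSMUSG00000086290, chromosome 4 from 132308623 to 132311024, plus strand) holds 5. Snhg3 (ENSMUSG00000085241, chromosome 4 from 132348014 to 132353686, minus strand) and Snhg5 (ENSMUSG00000097195, chromosome 9 from 88521050 to 88522929, minus strand) hold 2 each. Snhg6 (ENSMUSG00000098234, chromosome 1 from 9941959 to 9944118, minus strand), Snhg8 (ENSMUSG00000104960, chromosome 3 from 123507552 to 123508404, minus strand) and Snhg15 (ENSMUSG00000085156, chromosome 11 from 6525591 to 6528760, minus strand) hold 1 each. The annotation also lists isoforms that keep introns, so 27 of the 30 snoRNA genes lie wholly within an exon of some host isoform. Of these 27, 26 had 0 counts in every heart library. The setting for reads that overlap more than 1 gene is not given in the sources used here, and the counting program leaves such reads out by default. Whether the host counts include reads over the snoRNAs is therefore not known.

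The hearts were sequenced to totals of 26963288 to 35301909 counts and the muscles to totals of 36429399 to 74361382, and every heart of Taz-KD had a higher total than every WT heart. Taz itself fell in both tissues, with a log2 fold change of -1.70 (SE 0.06, adjusted p = 4.08e-09) in heart and -1.94 (SE 0.08, adjusted p = 1.86e-06) in muscle (edgeR's quasi-likelihood test), and the genotypes did not overlap in either. Xist, which marks cells with an inactive X chromosome, exceeded 100 CPM in 3 of 5 hearts of each genotype and in 0 of the 10 muscle libraries. The hearts R2 and R3 are labelled with much lower numbers than the other 8 hearts, and the labels do not say what this marks. Muscle library A33 (WT) stood apart by its markers of other cells. It held 175 summed CPM of 6 lymphocyte markers against 0.680 to 2.55 CPM in the other muscles, and 1080 CPM of 4 adipocyte markers against 2.75 to 299 CPM. Its macrophage markers summed to 145 CPM against 17.9 to 33.3 CPM, and its cycling markers to 15.2 CPM against 0.824 to 2.50 CPM. Muscle library A55 (WT) had the highest sum of heart markers among the muscles (3401 CPM, against 129 to 1354 CPM). Its sum of skeletal markers was the lowest (59500 CPM, against 83369 to 182476 CPM). Levels are given as CPM, the usual depth-scaled counts, for which TMM factors set the library sizes within each tissue. In bulk tissue, fewer cells of a type and less RNA per cell cannot be told apart.

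In heart, 3 of the 8 host genes rose in Taz-KD and none fell. Gas5 rose 1.66-fold, Snhg15 1.69-fold and Snhg6 1.35-fold. The other 5 had log2 fold changes between 0.05 and 0.60 that did not pass the test, and the median over all 8 was 0.41, beside -0.02 over the 19486 genes tested. Of all genes tested, 24.6% were called in heart in either direction, 14.4% were called higher and 10.3% lower, against which 3 of 8 has to be read. The values below are listed in the order R3, R1791, R1792, R1795 and R1800 for WT and R2, R1793, R1796, R1797 and R1798 for Taz-KD.

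Gas5, which hosts box C/D snoRNAs and whose spliced RNA is a classical substrate of NMD, measured 12.2, 11.7, 10.5, 10.2 and 11.9 CPM in the WT hearts and 20.2, 15.5, 22.2, 15.4 and 20.6 CPM in the Taz-KD hearts. These rest on 292 to 378 counts per WT library and 490 to 763 counts per Taz-KD library. All 5 Taz-KD hearts lay above all 5 WT hearts, a separation that 11.3% of all genes tested showed in this direction. WT hearts averaged 11.3 ± 0.884 CPM and Taz-KD hearts 18.8 ± 3.15 CPM (SD, n = 5 each), a log2 fold change of 0.73 (SE 0.11, edgeR adjusted p = 0.000518). An exact permutation test, two-sided and over all 252 ways to split the 10 hearts, gave p = 0.00794, the smallest value this design allows. Gas5 passed in each of the 22 alternative fits of heart, with log2 fold changes from 0.67 to 0.80.

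Snhg15, the host of the H/ACA snoRNA Snora9, was the least abundant of the 8 in heart, with 17 to 76 counts per library. It measured 1.16, 0.827, 0.896, 0.981 and 0.590 CPM in WT and 1.43, 1.53, 2.21, 0.879 and 1.51 CPM in Taz-KD. Of the Taz-KD hearts 4 exceeded every WT heart, while R1797 lay within the WT range. The log2 fold change was 0.76 (SE 0.25, edgeR adjusted p = 0.0415; exact permutation p = 0.0317). Among the 10 fits without 1 heart Snhg15 passed in those without R1797 or R3 and fell short in the other 8, with adjusted p up to 0.112 without R1796.

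Snhg6, the host of Snord87, measured 4.86, 5.49, 3.62, 3.64 and 4.20 CPM in WT and 6.47, 5.22, 5.19, 6.19 and 6.45 CPM in Taz-KD. Here 3 Taz-KD hearts exceeded every WT heart, and R1793 and R1796 lay below the highest WT heart. The log2 fold change was 0.44 (SE 0.14, edgeR adjusted p = 0.0325; exact permutation p = 0.0238). The call was lost without R1797, R1798, R2, R1792, R1795 or R1800, with adjusted p from 0.0612 to 0.0804. Without both R2 and R3 the adjusted p was 0.0706 for Snhg6 and 0.0510 for Snhg15, so that Gas5 was the only host gene called.

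**Figure D1:**
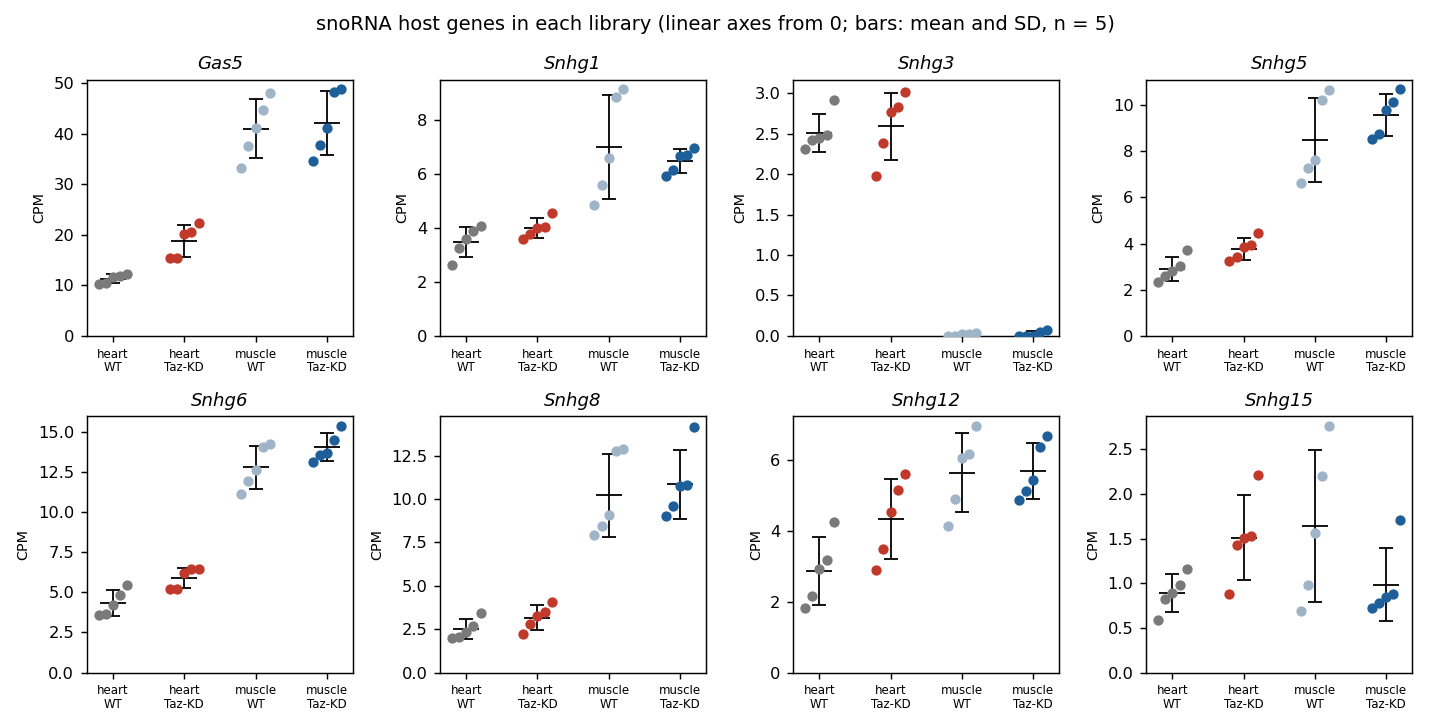
CPM of each host gene in each library (points), with mean and SD (n = 5) for WT and Taz-KD heart and muscle, on linear axes that start at 0. CPM are scaled within each tissue, so heart and muscle points are not on a common scale. Gas5 separates the heart genotypes (10.2 to 12.2 against 15.4 to 22.2 CPM), the other genes overlap between genotypes, and Snhg3 is close to 0 in muscle.

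Among the 5 host genes that did not pass, Snhg12 and Snhg5 had the larger differences. Snhg12, which hosts mostly H/ACA snoRNAs, measured 2.16, 4.25, 2.93, 1.82 and 3.19 CPM in WT and 4.54, 2.90, 5.62, 3.49 and 5.15 CPM in Taz-KD, with 3 Taz-KD hearts above every WT heart (log2 fold change 0.60 ± 0.24 SE, edgeR adjusted p = 0.0878). It passed without R1793 (adjusted p = 0.0468) or without R1791 (adjusted p = 0.0279). Snhg5, the host of Snord50a and Snord50b, measured 3.70, 2.82, 3.03, 2.59 and 2.32 CPM in WT and 3.95, 3.24, 3.41, 3.86 and 4.44 CPM in Taz-KD (log2 fold change 0.38 ± 0.14 SE, edgeR adjusted p = 0.0722). The WT heart R3 was the highest of its group, and without it Snhg5 passed (adjusted p = 0.0249).

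Snhg8, the host of Snora24, measured 2.35, 3.46, 2.07, 1.996 and 2.71 CPM in WT and 2.80, 3.51, 4.08, 2.20 and 3.24 CPM in Taz-KD (log2 fold change 0.33, 95% interval -0.09 to 0.75). Snhg1, the host of 8 box C/D snoRNAs, measured 3.25, 3.87, 4.07, 3.57 and 2.64 CPM in WT and 4.57, 3.60, 3.76, 3.99 and 4.04 CPM in Taz-KD (log2 fold change 0.20, 95% interval -0.09 to 0.48). The groups of both genes overlapped widely. Snhg3, the host of the H/ACA snoRNAs Snora73a and Snora73b, measured 2.48, 2.44, 2.31, 2.42 and 2.91 CPM in WT and 3.02, 2.38, 2.77, 2.83 and 1.98 CPM in Taz-KD (log2 fold change 0.05, 95% interval -0.26 to 0.35). Its interval leaves out the 0.73 measured for Gas5.

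Summed over the 8 host genes, the hearts held 27.2 to 34.9 CPM in WT and 37.9 to 49.3 CPM in Taz-KD, which did not overlap. Gas5 made up 36.7% ± 2.14 (SD, n = 5) of these counts in WT hearts and 42.4% ± 2.17 (SD, n = 5) in Taz-KD hearts. Taken singly, only Gas5 separated the genotypes, as 11.3% of all genes tested did in this direction. No such share was computed for sums, so the separation of the sum is not a result beyond Gas5. Per kilobase of exon the order of the levels differed from that of the CPM. In WT hearts Snhg6 measured 3.81 ± 0.705 CPM per kb (SD, n = 5), followed by Gas5 with 3.01 ± 0.235, Snhg8 with 2.95 ± 0.699 and Snhg3 with 2.55 ± 0.237, and each of these overlapped the next. Snhg5 followed at 1.67 ± 0.302, Snhg12 at 1.19 ± 0.396 and Snhg1 at 1.17 ± 0.190 CPM per kb, again with overlap between neighbours. Snhg15 was lowest at 0.655 ± 0.154, apart from Snhg1 but with its highest heart (0.853) above the lowest Snhg12 heart (0.758). The lengths join the exons of all isoforms, retained introns included (2969 bases for Snhg1, which is its whole span), so levels per kb are lower for genes with such isoforms.

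In skeletal muscle 7 of the 8 host genes were tested and none was called. The same test called 3 of 16145 genes (0.0186%) in muscle, Taz among them, and DESeq2 called 160 (0.925%) and none of the host genes. At an unadjusted p under 0.05 edgeR passed 0 of the 7 and 2408 (14.9%) of all genes. The median log2 fold change of the 7 was 0.04, beside -0.02 over all genes tested. Values are listed in the order A33, A40, A51, A55 and A57 for WT and A52, A56, A58, A34 and A39 for Taz-KD.

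Gas5 had the highest CPM of them, without regard to length, at 44.7, 33.2, 41.2, 48.0 and 37.5 CPM in WT muscle and 34.5, 48.7, 48.3, 41.0 and 37.8 CPM in Taz-KD muscle. The genotypes overlapped almost completely, with a log2 fold change of 0.04 and a 95% interval of -0.25 to 0.33 that leaves out the 0.73 measured in heart. Snhg6 measured 11.2, 12.6, 14.1, 12.0 and 14.3 CPM in WT and 15.4, 14.5, 13.5, 13.1 and 13.7 CPM in Taz-KD (log2 fold change 0.13, 95% interval -0.07 to 0.34). The intervals of Snhg5 (log2 fold change 0.17, -0.16 to 0.50), Snhg8 (0.09, -0.30 to 0.48), Snhg12 (0.01, -0.35 to 0.37) and Snhg1 (-0.11, -0.51 to 0.28) all held 0.

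Snhg15 had the largest difference in muscle and in the opposite direction to heart. It measured 2.76, 0.978, 1.57, 2.20 and 0.694 CPM in WT and 0.843, 0.775, 1.71, 0.884 and 0.722 CPM in Taz-KD, which overlapped (log2 fold change -0.73 ± 0.39 SE, edgeR adjusted p = 0.390). The highest WT value belonged to A33, the library with the markers of other cells, and without it the log2 fold change was -0.46 (edgeR adjusted p = 0.644). The part of those cells in the value was not tested. Snhg3 was almost undetected in muscle, with 0 to 2 counts per WT library and 0 to 5 per Taz-KD library, and was not tested there.

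Whether the genotype effect differed between heart and muscle was tested with an interaction term in 1 fit of all 20 libraries. Gas5 was the only host gene called, with an effect 0.63 higher in heart than in muscle on the log2 scale (SE 0.17, 95% interval 0.27 to 0.98, adjusted p = 0.0416, edgeR), while 4.62% of 20612 genes were called. The call was close to the threshold: it was lost in 14 of the 20 fits that left out 1 library, with adjusted p up to 0.0902 without R1796, and kept without R1793, R1797, A56, A58, A40 or A57. The size of the difference stayed between 0.56 and 0.74 in those fits. Snhg15 had a larger but less certain difference of 1.41 (SE 0.46, edgeR adjusted p = 0.0910). It passed without A57 (edgeR adjusted p = 0.0236), where 2042 of all genes were called, against 952 in the main fit. It also passed without A58 (edgeR adjusted p = 0.0363, 918 of all genes) and with DESeq2 (adjusted p = 0.0464), which called 8.08% of all genes. The other 6 had differences between -0.66 and 0.51 whose 95% intervals held 0, so a different effect in the tissues was not shown for them, nor was an equal one.

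**Figure D2:**
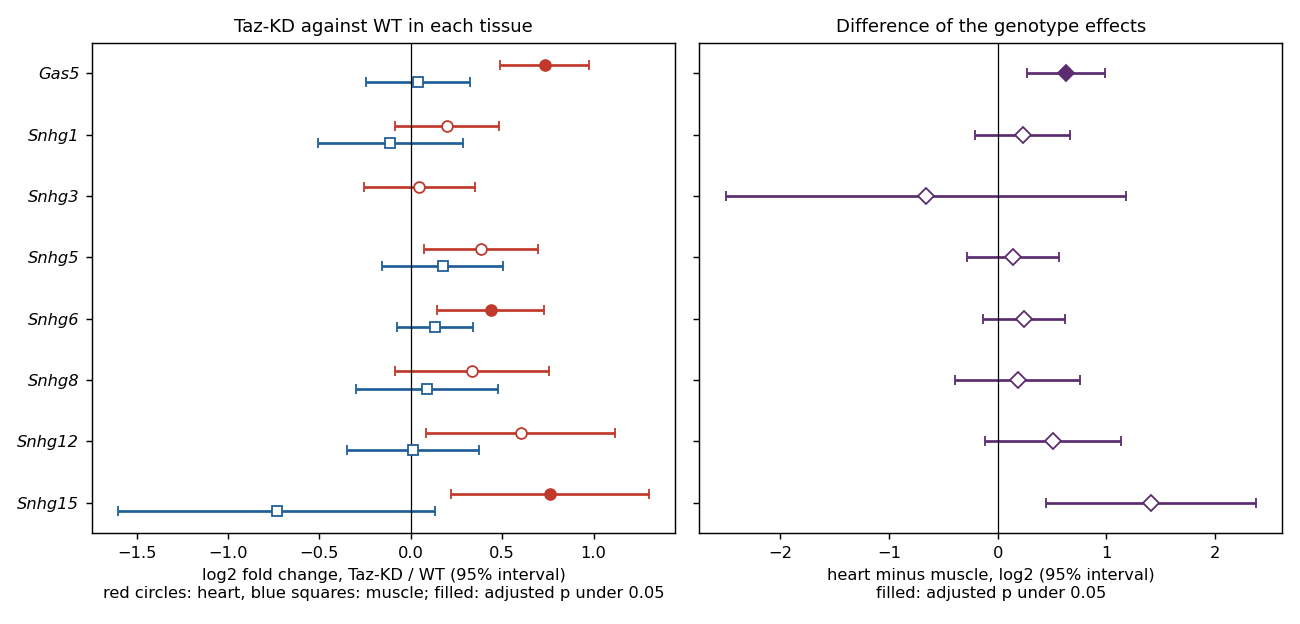
Left, log2 fold change of Taz-KD against WT for each host gene in heart (red circles) and muscle (blue squares), with 95% intervals. Right, the effect in heart minus the effect in muscle. Filled symbols have an adjusted p under 0.05: Gas5 (0.73), Snhg6 (0.44) and Snhg15 (0.76) in heart, none in muscle, and Gas5 (0.63) for the difference. Snhg3 has no muscle symbol because it was not tested there.

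The levels themselves differed between the tissues for the 7 host genes counted in both, while Snhg3 was almost undetected in muscle. In WT mice 7 were lower in heart than in muscle, from a log2 difference of -1.48 (SE 0.33) for Snhg15 to -2.66 (SE 0.21) for Snhg8, and Gas5 lay at -2.49 (SE 0.13). Snhg3 was the exception, with a fitted difference of 6.40 (SE 0.57) in favour of heart. It had 0 to 2 counts per WT muscle library and passed the filter only through the hearts, so its call is not a test. Gm17300, which shares 705 of the 986 exonic bases of Snhg3, had a difference of 4.19 in the same direction. Of all genes 80.5% were called in this comparison, 45.2% higher and 35.3% lower in heart, so that the calls alone say little about the host genes. On the common scale of all 20 libraries Gas5 measured 53.7 ± 7.52 CPM (SD, n = 5) in Taz-KD muscle and 50.7 ± 6.42 CPM (SD, n = 5) in WT muscle, which overlapped, then 14.8 ± 2.57 CPM in Taz-KD heart and 9.05 ± 0.696 CPM in WT heart, each apart from the next. For Snhg1, Snhg5, Snhg6, Snhg8 and Snhg12 both muscle groups lay above both heart groups, and the genotypes of a tissue overlapped on this scale. For Snhg15 each group overlapped the next.

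Tissue cannot be told apart from library content here, for levels and for the difference of the genotype effects alike. RNAs without a poly(A) tail (Rn7sk, Rmrp, Rpph1, Terc, Rny1 and Rny3) summed to 11540 to 16027 CPM in the hearts and to 0.0196 to 0.492 CPM in the muscles, although the labels describe 1 protocol for both. Rmrp and Rpph1 had 0 counts in every muscle library. The labelled tissues did match their markers, since 8 heart markers summed to 37863 to 52466 CPM in heart and 129 to 3401 CPM in muscle, and 8 skeletal markers to 38.1 to 1494 CPM and 59500 to 182476 CPM.

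Several host genes share their start or their sequence with other genes, and their neighbours did not all follow them. Slc3a2, the heavy chain shared by several amino acid transporters and a target of the integrated stress response, starts 106 bases from Snhg1 and runs the other way. It measured 22.5 to 32.6 CPM in WT hearts and 64.0 to 79.3 CPM in Taz-KD hearts (log2 fold change 1.40 ± 0.10 SE, edgeR adjusted p = 7.65e-07), while Snhg1, on the other side of the same start region, had 0.20. In muscle Slc3a2 had -0.07. Zbtb37 overlaps the upstream start of Gas5, though not the downstream one, on the opposite strand with 0 shared exonic bases. It averaged 68.3 ± 4.79 CPM in WT hearts and 66.3 ± 6.21 CPM in Taz-KD hearts (SD, n = 5 each), a log2 fold change of -0.04, whereas Gas5 had 0.73.

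Mcmdc2 shares 127 exonic bases with Snhg6 on the opposite strand and had a log2 fold change of 0.26 (adjusted p = 0.384, edgeR). The libraries mark the strand, but whether the counting used it is not given in the sources used here, so reads of such pairs may not be separated. Snhg3 is the most entangled of the 8. It shares 135 exonic bases with Rcc1, the nucleotide exchange factor of Ran that starts 81 bases away on the same strand, and 705 of its 986 exonic bases with Gm17300 on the opposite strand. Rcc1 had a log2 fold change of 0.04 in heart. Gm17300 measured 5.93 to 9.02 CPM in WT and 8.08 to 18.6 CPM in Taz-KD hearts (log2 fold change 0.62, adjusted p = 0.0542, edgeR), with its highest value in R1796.

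Of the 30 hosted snoRNA genes only Snora73b, which has no base in an exon of Snhg3, had enough counts to be tested. It measured 2.99, 3.04, 1.999, 2.80 and 3.92 CPM in WT hearts and 2.89, 3.73, 10.7, 3.49 and 5.93 CPM in Taz-KD hearts (log2 fold change 0.86 ± 0.35 SE, edgeR adjusted p = 0.0990). R1796 alone held 366 counts, against 93 to 192 in the other Taz-KD hearts, and without it the log2 fold change was 0.44 (edgeR adjusted p = 0.207). DESeq2 on all 10 hearts passed Snora73b (adjusted p = 0.0382). Snora73b and its neighbour Snora73a differ at 7 of 205 positions (96.6% identity), so that reads may not be assigned to 1 of them with certainty. In muscle Snora73b had 0 counts in all 10 libraries, in which Snhg3 itself was close to 0. The listed RNAs without a poly(A) tail were near 0 in these libraries as well. The absence of Snora73b therefore cannot be tied to Snhg3.

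**Figure D3:**
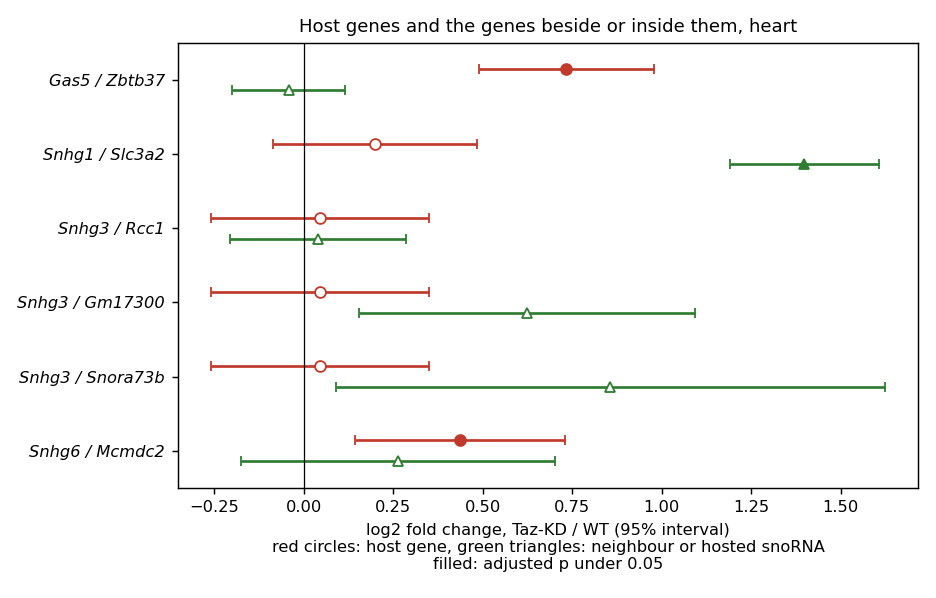
Log2 fold change of Taz-KD against WT in heart, with 95% intervals, for host genes (red circles) and a gene that overlaps, adjoins or lies inside each (green triangles). Filled symbols have an adjusted p under 0.05. Slc3a2 (1.40) stands apart from Snhg1 (0.20), and Gas5 (0.73) stands apart from Zbtb37 (-0.04).

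The host genes belong to a larger set of transcripts around ribosome production and translation, which was read list by list. These lists were chosen with earlier results of these data known, so their counts are descriptions and not tests. Each count in heart stands against the 14.4% of all genes tested that were called higher, the 10.3% called lower and the 24.6% called in either direction. Of 8 further genes known as snoRNA hosts that were tested in heart, 1 rose: Snhg11, which is best known from neurons, went from 0.132 ± 0.0441 to 0.906 ± 0.179 CPM (SD, n = 5 each; log2 fold change 2.74, adjusted p = 2.37e-05, edgeR). Zfas1, the host of snoRNAs at an antisense locus, had 0.38 (adjusted p = 0.0740) and Snhg20 had -0.24 (adjusted p = 0.268), and the median of these 8 was 0.15. Over all annotated lincRNAs, antisense RNAs and processed transcripts that contain a snoRNA, the 8 genes left aside, 5 rose and 1 fell of 23 tested (26.1%, median 0.11), which is near the share of all genes. Over hosts annotated as protein-coding, Snhg11 among them, 87 rose and 15 fell of 250 tested (median 0.10), and without ribosomal protein genes 58 rose and 15 fell of 220 (median 0.06).

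The proteins that bind mature snoRNAs moved in part. Of the 8 core proteins of snoRNA particles 4 rose and none fell (median 0.32). Nhp2, an H/ACA core protein, rose from 6.52 ± 0.543 to 16.8 ± 2.05 CPM (SD, n = 5 each; log2 fold change 1.37, adjusted p = 1.17e-06, edgeR). The C/D core proteins Nop58 and Fbl, the methyltransferase, rose by 0.49 on the log2 scale each (adjusted p = 0.00331 and 0.00524). Snu13 rose by 0.19 (adjusted p = 0.0416) and passed in 2 of the 10 fits that left out 1 heart. Of 10 assembly factors 4 rose (Pih1d1 by 0.62, Shq1 by 0.56, Ruvbl1 by 0.46 and Naf1 by 0.28), none fell, and the median was 0.19.

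Of 14 genes of RNA polymerase I and nucleolar ribosome assembly 6 rose and none fell (median 0.23). Myc, a transcription factor that drives ribosome production, rose from 5.06 ± 1.20 to 23.3 ± 5.92 CPM (SD, n = 5 each; log2 fold change 2.21, adjusted p = 1.73e-05, edgeR). Nucleolin (Ncl) rose by 0.63, Rrn3, which activates polymerase I, by 0.45 and its largest subunit Polr1a by 0.28. Of 13 translation factors whose mRNAs are known or thought to carry a TOP motif all 13 rose (median 0.47). The smallest adjusted p belonged to Eef1a1 (log2 fold change 2.02, adjusted p = 6.25e-08, edgeR), followed by Rack1 (0.73) and Eef2 (0.71). Of 82 ribosomal protein genes tested 76 rose and 1 fell (median 0.72). The one that fell was Rpl3l, the paralog of Rpl3 that striated muscle uses, at -1.81.

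Of 12 NMD factors 1 rose (Rnps1, log2 fold change 0.19, adjusted p = 0.0441, edgeR), which passed in 2 of the 10 fits that left out 1 heart, none fell, and the median was 0.03. This share (8.33%) was below that of all genes, without a test of the difference. All 12 genes taken as targets of the integrated stress response rose, with a median of 2.92, in a list that was also chosen with earlier results known. Among them were Trib3 (4.86), Psat1 (4.65), Atf5 (3.67) and Chac1 (3.04). In muscle 0 genes of any of these lists passed the test, and the medians were 0.04 for the host genes, 0.06 for the snoRNA particle proteins, 0.12 for their assembly factors, 0.09 for the NMD factors, 0.11 for the polymerase I and nucleolar genes, 0.13 for the translation factors and 0.06 for the ribosomal proteins. They lay farther from 0 for the stress response targets (0.47, with 9 of 12 above 0) and for the 8 further snoRNA hosts (-0.40, with 1 of 8 above 0 and Snhg11 at -2.61).

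**Figure D4:**
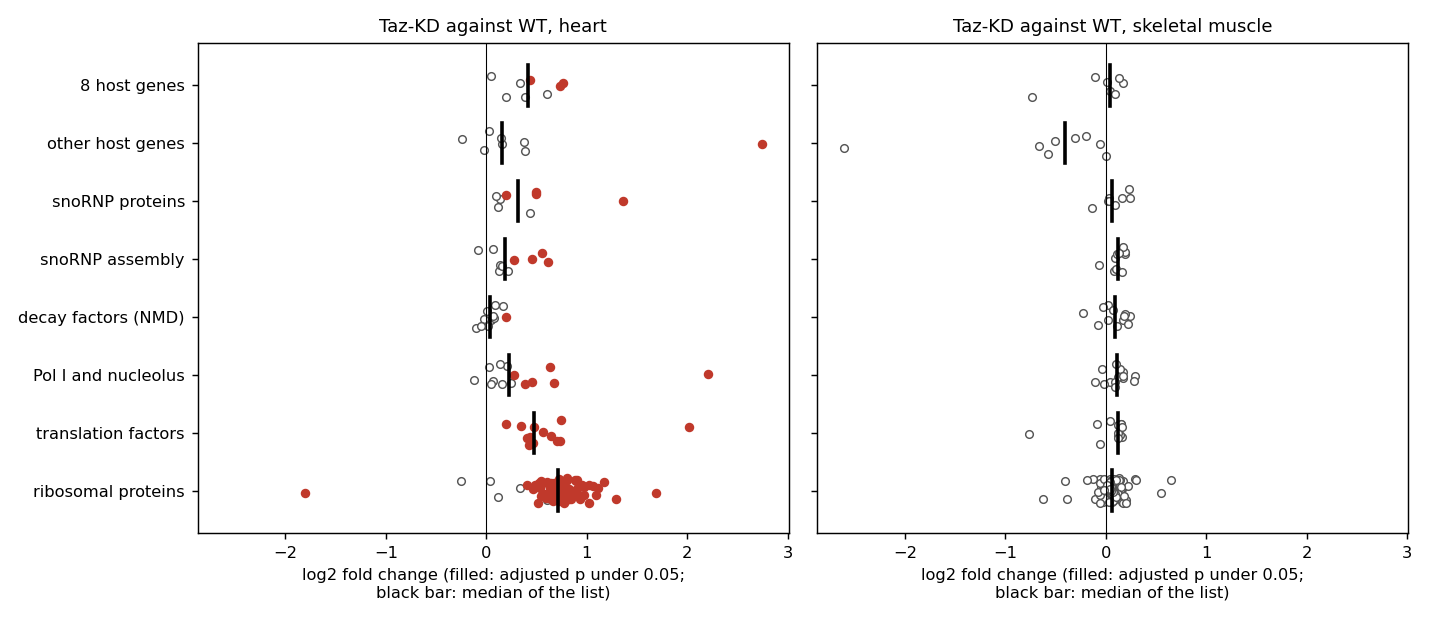
Log2 fold change of Taz-KD against WT for each tested gene (points) of 8 lists in heart (left) and skeletal muscle (right), on the same axis. Filled points have an adjusted p under 0.05 and black bars are medians. The lists were chosen with earlier results of these data known. In heart the median is 0.41 for the 8 host genes, 0.03 for the decay factors and 0.72 for the ribosomal proteins, and in muscle no gene of these lists passed.

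After the mean of each tissue and genotype was taken away, the log2 CPM (with 0.5 added) of 9058 genes was set against the mean of the 7 host genes tested in both tissues, over 20 libraries. The 5 most alike were Rps9 (Pearson r = 0.78), Cnp (0.76), Rpl39 (0.76), Rps4x (0.75) and Rps18 (0.74), of which 4 encode ribosomal proteins. They are the highest of 9058 values and were not tested against what so many genes would give by chance. Between the host genes themselves r ran from -0.41 to 0.73 over 28 pairs in the 10 hearts (median 0.13) and from -0.67 to 0.80 over 21 pairs in the 10 muscles (median 0.36). These values describe libraries that share their depth and scaling between genes.

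Some markers of other cells also differed between the heart genotypes. Each count below stands against the 10.3% of all genes tested in heart that were called lower and the 14.4% called higher. Of 5 endothelial markers 3 fell (Pecam1 by 0.33, Emcn by 0.24 and Tek by 0.20 on the log2 scale), and their sum was 654 to 813 CPM in WT and 554 to 672 CPM in Taz-KD. Of 5 macrophage markers 1 fell (Ptprc, by 0.47), with sums of 112 to 159 and 98.5 to 117 CPM. Of 3 red cell markers 2 fell (Alas2 and Hbb-bs), with sums of 351 to 682 and 263 to 416 CPM, and of 6 markers of cycling cells 2 fell (Cdk1 and Ccnb1), with sums of 15.8 to 36.7 and 13.3 to 21.7 CPM. Of 5 fibroblast markers, 8 heart markers and 3 tested adipocyte markers none passed, and 1 of 4 tested skeletal markers rose (Acta1, by 1.82). Of the fits that left out 1 heart, Emcn and Cdk1 passed in 3 of 10 each and Acta1 and Ccnb1 in 2 of 10 each. The 6 lymphocyte markers summed to 0.591 to 1.48 CPM in every heart. No marker of these lists was at 0 in a heart group other than Myh4. Their part in the host gene values was not tested.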

How the data were processed

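RNA-seq was performed on hearts and femur muscles of WT and Taz-KD mice. Per the labels, total RNA was depleted of ribosomal RNA and made into strand-marking libraries. The authors aligned 150 bp paired reads with STAR (default parameters, GRCm38) and deposited raw counts per gene from featureCounts 1.6.4, in 1 table per tissue. They used DESeq2 2.11.40.6 for their own tests, according to the submitters' processing notes. For strand, multi-overlap reads and annotation release, the settings were not given in the sources used here.

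Tests were run on these counts with edgeR 4.0.16 under R 4.3.3 (filterByExpr by genotype, TMM factors, robust quasi-likelihood fit, Benjamini-Hochberg adjustment over all genes tested, threshold 0.05), which left 19486 genes in heart, 16145 in muscle and 20612 in the joint fit of both. Higher library totals lower the counting error of a gene, which is largest in heart for Snhg15, the host gene with the fewest counts there. Standard errors were derived from the F statistic. The scripts were tested on simulated counts. Permutation tests used log2(CPM + 0.5) and were run for 15 gene and tissue pairs of host genes, without adjustment. They were also run for Taz, the tested neighbours and Snora73b.

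The 8 members and all gene lists were chosen with earlier results of these data known. Named were the members, Taz, genes that overlap a member or start within 5000 bases, up to 4 genes per list with the smallest adjusted p in heart and 2 in muscle, and the 5 genes most like the members. Not every such gene is given. Nothing says that the animals of a group came from separate litters, so p-values measure the spread between these mice. No deposited column was left unmapped. Alternatives were DESeq2 1.42.0, limma-voom, other scalings, filters, dispersions and sets of libraries, and a covariate for Xist added after the data were seen.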

Additional observations from a re-analysis of the deposited data

Results flagged for a closer look

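The genotype effect differed between the tissues, by the test of the interaction, for Gas5 (0.625 on the log2 scale, heart minus muscle, adjusted p = 0.0416, edgeR) and for Slc3a2, which starts beside Snhg1 (1.39, adjusted p = 2.22e-05, edgeR). Slc3a2 passed in each of the 20 fits without 1 library, and Gas5 in 6 of them. Tissue cannot be told apart from library content or from the Xist difference in either result.

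Among 56 sets of 5 libraries looked at, 5 held a library far from the others, and chance gives about 1 in 20. Snhg3 was 2.91 CPM in WT heart R1800, against 2.31 to 2.48 CPM in the other WT hearts. Snhg15 was 1.71 CPM in Taz-KD muscle A58, against 0.722 to 0.884 CPM, and Taz was 15.2 CPM in the same library, against 12.7 to 13.4 CPM. Gm17300 was 18.6 CPM in Taz-KD heart R1796, against 8.08 to 10.9 CPM, and 0.536 CPM in WT muscle A33, against 0.166 to 0.210 CPM.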

How the results depend on the processing

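The count of host genes called in heart was 3, with 4803 of all genes called. It became 1 with library sizes in place of scaling factors (4461 of all genes) and 1 in the fit of all 20 libraries (2087). Without hearts R2 and R3 it was 1 as well (3909). It ran from 1 to 4 when single hearts were left out (3930 to 4616 of all genes). It was 2 or 3 in the other 9 alternatives, the Xist covariate included (3), with 4333 to 5262 of all genes called. The count for the difference between tissues was 1, with 952 of all genes called. It became 2 with DESeq2 (1605 of all genes), 0 with limma-voom (942), 0 without a filter (672) and 0 without R2 and R3 (637). Without single libraries it ran from 0 to 2 (607 to 2042). In muscle it stayed at 0 throughout, with 2 to 167 of all genes called. Between WT tissues it was 8 (16597 of all genes in the main fit). It was 7 where at least 10 counts in every library were required (10079 of all genes), which leaves Snhg3 out. The cause of the changed calls was not tested.

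The values that changed sign were all uncalled. In heart Snhg3 was -0.0184 and Rcc1 was -0.0173 without R2 and R3. Without single hearts Snhg3 ran from -0.0137 to 0.129, Rcc1 from -0.0136 to 0.130 and Zbtb37 from -0.0851 to 0.0011. The difference between tissues of Snhg3 was 0.0786 with limma-voom and ran from -1.20 to 0.270 without single libraries. In muscle, library sizes moved the median of all genes by -0.14 and gave -0.108 for Gas5, -0.0429 for Snhg8, -0.147 for Snhg12 and -0.0738 for Zbtb37. Upper-quartile factors gave -0.0071 for Snhg12. Rcc1 was 0.0048 without a filter and 0.0229 in the fit of all 20 libraries. Without single muscle libraries Gas5 ran from -0.0157 to 0.106, Snhg1 from -0.216 to 0.0059, Snhg8 from -0.0242 to 0.184, Snhg12 from -0.0774 to 0.0997, Slc3a2 from -0.148 to 0.0038, Rcc1 from -0.0569 to 0.0233 and Gm17300 from -0.354 to 0.295.

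No paired analysis was possible because the groups share no replicate number and no label links a heart to a muscle.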
